A study of Mus musculus with 13 samples.

Results

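Dedicator of cytokinesis (DOCK) genes were followed in bulk RNA-seq of mouse brain during cuprizone (CPZ) demyelination and the recovery after it. The 9 members were Dock1, Dock2, Dock3, Dock4, Dock5, Dock8, Dock9, Dock10 and Dock11, taken by gene symbol from a given list. The list was chosen with earlier results of these data known, so it is not an unselected set. They are 9 of 55401 genes in the table, and all 9 passed the filter on low counts that left 14985 genes for testing. Dock6, a DOCK gene outside the list, is given only for reference.

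DOCK proteins are guanine nucleotide exchange factors, which switch on the small GTPases Rac and Cdc42 by letting them release GDP and take up GTP. They do this through a catalytic domain of their own, unlike the larger Dbl family of exchange factors, and the GTPases in turn drive the actin remodelling behind migration, engulfment of debris, neurite growth and process extension. The family has subfamilies A (Dock1, Dock2 and Dock5) and B (Dock3 and Dock4), which act mainly on Rac, and C (with Dock6 and Dock8) and D (Dock9, Dock10 and Dock11), which act on Cdc42 and in part on Rac. Dock2 and Dock8 are best known from blood-derived immune cells, and Dock3 from neurons.

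The 13 libraries came from snap-frozen brain hemispheres of male C57BL/6J mice, which the labels give as 6 to 8 weeks old. The text of the study gives a higher age, so the age of the mice is not settled. The control group (CTL, 5 libraries) ate control diet for 6 weeks, the CPZ group (4 libraries) ate 0.3% CPZ diet for 4 weeks, and the recovery group (RCV, 4 libraries) had 4 weeks of CPZ and then 2 weeks of control diet. No group carried a transgene or a mutant allele. CPZ is a copper chelator that kills mature oligodendrocytes (MOL), the myelinating cells. CPZ mice were collected at week 4 and the other groups at week 6, so the diet and these 2 weeks cannot be told apart in comparisons with CPZ. The design text gives fewer mice per group than there are libraries, while a figure legend of the study counts as many samples as libraries. The labels do not tie libraries to mice, so whether each library is a separate mouse is not settled and the p-values measure the spread between libraries.

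Libraries held 4605100 to 8197289 estimated counts. Over the brain, all 15 microglia markers were higher in CPZ than in CTL (median log2 fold change 2.70) and 15 of 17 MOL markers were lower (median -1.48). In RCV against CTL, 1 of 15 microglia markers was higher in edgeR (median 1.02), while DESeq2 called 11 and 14 had an unadjusted p below 0.05 in edgeR. Of the 17 MOL markers, 0 passed in edgeR, in DESeq2 or at an unadjusted p below 0.05. The microglia score, the mean log2-CPM (log2 of counts scaled to library size) of these markers, lay between 4.12 and 4.35 in CTL, 6.20 and 7.36 in CPZ, and 4.89 and 5.34 in RCV. The MOL score lay between 6.26 and 7.18, 5.30 and 5.95, and 6.63 and 7.36, respectively. The T and B cell markers Cd3d, Cd3e, Cd3g, Cd8a, Cd79a and Ms4a1 had at most 2 counts in any library, and of the monocyte markers Ccr2 had at most 5.32 and Ly6c2 at most 8.44. Fn1, the single monocyte marker of 8 with enough counts for a test, rose by 1.53 on the log2 scale in CPZ against CTL. Of these 8 monocyte and neutrophil markers, 5 had at most 10 counts in every CTL library, 7 in every CPZ library and 5 in every RCV library. Their score was 1.19 in CTL 2 and 1.11 in RCV 1, and at most -0.00411 in the other libraries.

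The promoter sequences of the 3 members that rose in CPZ are shown first, since Dock2 and Dock8 moved together across the groups. RefSeq promoters on GRCm38.p6, from 250 bases before the transcript start to 50 after it, were given for 8 of the 9 members, with 11 promoters in all. Dock5 had no entry. Capitals mark GAGGAA, a core bound by the ETS factor PU.1, or its reverse complement TTCCTC. Other or shorter ETS sites were not searched for and are not marked.
Dock2, chr11:34783856-34784155, minus strand: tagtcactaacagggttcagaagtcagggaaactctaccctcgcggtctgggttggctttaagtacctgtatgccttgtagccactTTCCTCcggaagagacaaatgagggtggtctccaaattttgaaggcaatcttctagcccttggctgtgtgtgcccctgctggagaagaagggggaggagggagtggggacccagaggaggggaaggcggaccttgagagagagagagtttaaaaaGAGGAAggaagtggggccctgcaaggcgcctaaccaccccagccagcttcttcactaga
Dock8, chr19:24999279-24999578, plus strand: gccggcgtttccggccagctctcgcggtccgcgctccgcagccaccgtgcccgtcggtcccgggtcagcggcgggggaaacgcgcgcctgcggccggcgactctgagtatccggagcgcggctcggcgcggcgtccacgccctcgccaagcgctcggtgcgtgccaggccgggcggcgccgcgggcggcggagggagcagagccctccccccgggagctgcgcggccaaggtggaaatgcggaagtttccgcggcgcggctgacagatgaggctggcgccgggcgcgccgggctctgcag
Dock1, chr7:134670437-134670736, plus strand: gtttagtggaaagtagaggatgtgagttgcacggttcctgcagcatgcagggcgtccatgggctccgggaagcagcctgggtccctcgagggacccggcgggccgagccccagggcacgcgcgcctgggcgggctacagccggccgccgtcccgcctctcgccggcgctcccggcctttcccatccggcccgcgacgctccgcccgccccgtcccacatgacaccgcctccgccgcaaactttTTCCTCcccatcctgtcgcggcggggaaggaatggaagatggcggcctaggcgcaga

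The Dock2 promoter held this core at bases 87 to 92, on the opposite strand, and at bases 242 to 247, on the strand of the gene. The Dock1 promoter held it at bases 244 to 249 on the opposite strand, and the Dock8 promoter did not hold these letters. Among the 11 member promoters 4 held it, on either strand, against 28.3% of 32851 promoters in the reference. ACAAAG, a core bound by SOX factors, was in 1 of the 11, a promoter of Dock9, against 18.7% of all promoters. GC content was 78.0% in the Dock8 promoter, 70.7% in that of Dock1 and 54.3% in that of Dock2, and the median of all promoters was 52.7%.

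Transcript levels of the members covered a wide range. On the length-scaled TPM scale, the CTL mean was 123.9 ± 11.2 (SD, n = 5) for Dock3, 69.0 ± 8.96 for Dock9, 37.3 ± 5.85 for Dock4, 31.7 ± 3.01 for Dock10 and 13.4 ± 1.11 for Dock1. Dock5 at 6.04 ± 1.99, Dock11 at 4.56 ± 1.37, Dock8 at 2.33 ± 1.01 and Dock2 at 2.09 ± 0.984 TPM had the lowest levels. In this order the CTL libraries of Dock3 and Dock9 did not overlap, nor did those of Dock9 and Dock4. The neighbours Dock4 and Dock10 overlapped, as did each pair of neighbours from Dock5 down to Dock2. Dock6 (15.3 ± 4.66) lay next to Dock1. In CPZ, Dock2 reached 11.9 ± 2.87 TPM (n = 4) and had moved above Dock5, Dock8 and Dock11.

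Subfamily B made up the largest share of the DOCK transcripts in each group. Dock3 and Dock4 accounted for 55.5 ± 3.10% of the summed TPM of the 9 members in CTL, 50.4 ± 2.14% in CPZ and 52.6 ± 5.48% in RCV. Subfamily A took 7.42 ± 0.939% in CTL, 11.5 ± 0.908% in CPZ and 7.22 ± 1.40% in RCV, with no CPZ library (lowest 10.4%) as low as any CTL library (highest 8.66%). Dock8, the member followed from subfamily C, took 0.806 ± 0.348%, 2.38 ± 0.706% and 1.16 ± 0.351%. Subfamily D stayed between 32.8% and 44.0% in all CTL and RCV libraries and between 33.5% and 37.6% in CPZ. These shares were described and not tested. The summed TPM itself was 290.3 ± 12.4 in CTL, 291.9 ± 17.0 in CPZ and 292.6 ± 5.78 in RCV, so its groups overlapped.

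Against CTL, 4 of the 9 members changed in CPZ. Dock2, Dock8 and Dock1 rose and Dock5 fell (edgeR quasi-likelihood test, Benjamini-Hochberg adjusted over all genes tested). Over all 14985 genes, 10.2% passed this test in either direction, 7.66% higher and 2.5% lower in CPZ. The CTL and CPZ libraries did not overlap for Dock1, Dock2 and Dock8, and for 13.1% of all genes. The median log2 fold change was 0.27 over the 9 members and -0.02 over all genes. Fewer cells of a type, less RNA per cell and a different mix of brain regions cannot be told apart in these bulk libraries. Regional marker scores (mean log2-CPM) varied between libraries, from 3.57 in RCV 3 to 7.37 in CTL 2 for striatal neurons. For choroid plexus they ran from 0.468 in RCV 4 to 5.81 in CTL 3.

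**Figure D1:**
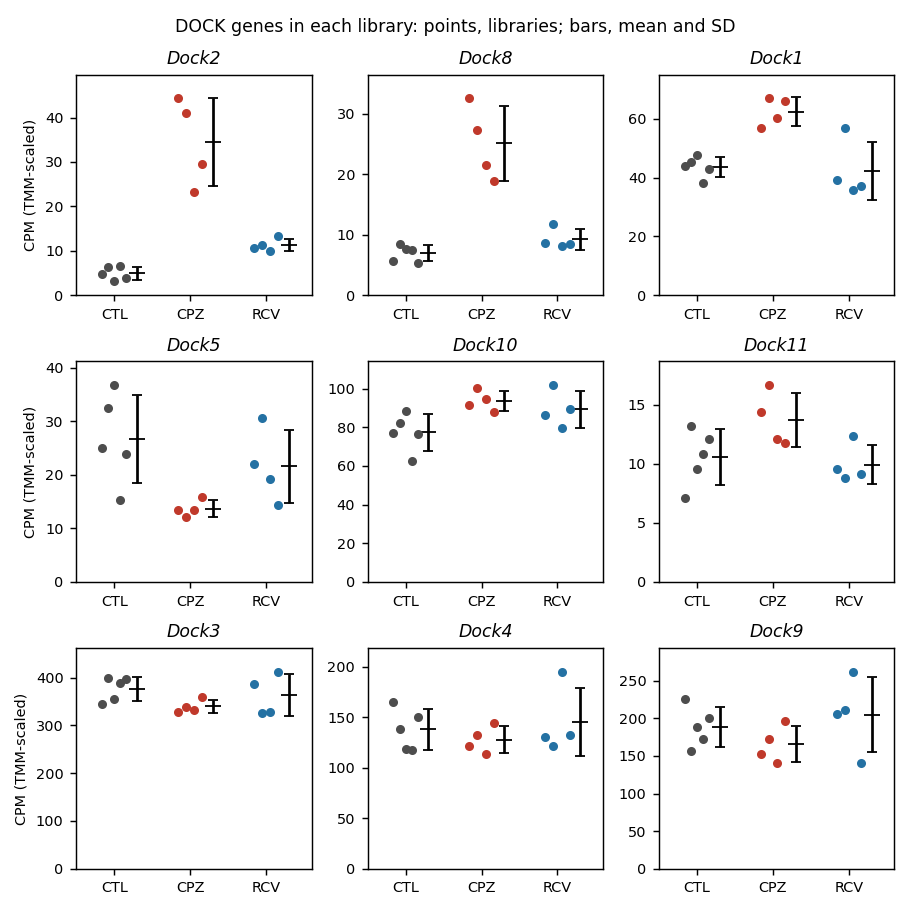
Counts scaled to library size with TMM factors (CPM, y axes) of the 9 members, with 1 point per library in each panel, grouped as CTL (5), CPZ (4) and RCV (4) on the x axis, and bars for the mean and SD. The CPZ points of Dock2, Dock8 and Dock1 lie above every CTL point, while the Dock5 points of CPZ overlap the lowest CTL library.

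Dock2, a Rac activator that directs chemotaxis of leukocytes, changed most. Its CPM was 4.76, 6.30, 3.23, 6.57 and 3.85 in CTL 1 to 5, 44.4, 41.0, 23.2 and 29.4 in CPZ 1 to 4, and 10.6, 11.3, 10.01 and 13.2 in RCV 1 to 4. The 3 groups did not overlap, with every RCV library between the highest CTL and the lowest CPZ library. The log2 fold change in CPZ against CTL was 2.79 (SE 0.22, adjusted p = 1.12e-06), or 6.92-fold. These values rest on 21 to 43 counts per library in CTL and 167 to 337 in CPZ.

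Dock8, which loads Cdc42 in immune cells and whose loss causes an immunodeficiency, had the next largest change. Its CPM was 5.71, 8.40, 7.68, 7.49 and 5.32 in CTL, 32.6, 27.3, 21.5 and 18.9 in CPZ, and 8.65, 11.8, 8.08 and 8.46 in RCV. All CPZ libraries were above all others, and RCV overlapped CTL at its lower end. The log2 fold change in CPZ against CTL was 1.85 (SE 0.18, adjusted p = 3.28e-06), or 3.60-fold.

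Dock2 and Dock8 shared their order among the CPZ libraries in part. CPZ 1 and CPZ 2 were the higher libraries of the group for both genes, and their microglia scores of 7.36 and 7.17 were also above the 6.20 of CPZ 3 and the 6.60 of CPZ 4. The r between Dock2 and Dock8 over the 13 libraries was 0.94, and 0.54 after the group means were removed. The libraries share their group, so these values are descriptions of the 2 genes over the same mice.

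Dock1, the founding member of the family, works with ELMO proteins in engulfment and cell migration. Its CPM was 43.9, 45.5, 47.6, 38.2 and 42.9 in CTL, 56.9, 67.1, 60.2 and 66.0 in CPZ, and 39.1, 56.9, 35.8 and 37.3 in RCV. The CPZ libraries were above all CTL libraries, and RCV 2 stood apart from the other RCV libraries close to the lowest CPZ value. The log2 fold change in CPZ against CTL was 0.52 (SE 0.11, adjusted p = 0.00617), or 1.43-fold. With limma on log2(TPM + 1) the call was lost (log2 fold change 0.47, adjusted p = 0.0526).

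Dock5, a close relative of Dock1 that also activates Rac, was the member that fell. Its CPM was 25.0, 32.4, 36.7, 15.3 and 23.8 in CTL, 13.4, 12.0, 13.5 and 15.8 in CPZ, and 22.0, 30.6, 19.2 and 14.3 in RCV. The CPZ libraries lay close together, whereas CTL and RCV were wide, and CTL 4 was below the highest CPZ library. The log2 fold change in CPZ against CTL was -0.97 (SE 0.25, adjusted p = 0.0219). CTL 4 also had the lowest MOL score of its group, 6.26 against 6.82 to 7.18 in the other CTL libraries. The Dock5 call was lost without CTL 2 (adjusted p = 0.0515), CPZ 1 (0.0731), CPZ 2 (0.0764) or CPZ 3 (0.0590), and with the replicate block (0.0544).

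Dock10 and Dock11, exchange factors of subfamily D, did not pass. Dock10 lay between 62.5 and 88.5 CPM in CTL, 87.8 and 100.4 in CPZ, and 79.5 and 101.9 in RCV, with a log2 fold change in CPZ against CTL of 0.27 (95% confidence interval 0.08 to 0.47, adjusted p = 0.0656). CTL 3 alone kept its groups from separating, and without it the call was made (log2 fold change 0.33, adjusted p = 0.0289), as it was without RCV 2 (adjusted p = 0.0447). DESeq2 also called Dock10 (adjusted p = 0.0483), as did the fit with hippocampal and striatal scores as covariates (adjusted p = 0.0147). Dock11 lay between 7.07 and 13.2 CPM in CTL and 11.7 and 16.7 in CPZ, with a log2 fold change of 0.39 (0.03 to 0.75, adjusted p = 0.189).

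The members with the highest levels had small fold changes. Dock3, a neuronal Rac activator, lay between 344.0 and 398.0 CPM in CTL and 328.2 and 360.1 in CPZ, with a log2 fold change of -0.15 (95% confidence interval -0.31 to 0.01, adjusted p = 0.268). Dock4 had -0.11 (-0.41 to 0.19, adjusted p = 0.732) and Dock9, a Cdc42 activator of neurons, -0.19 (-0.53 to 0.16, adjusted p = 0.576). Dock6 had -0.08 (SE 0.11, adjusted p = 0.743).

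In RCV against CTL, 0 of the 9 members passed in edgeR and limma-voom, while DESeq2 called 1 and 2 had an unadjusted p below 0.05 in edgeR. Over all genes, 0.374% passed in edgeR, while limma-voom called 16 of 14985 and DESeq2 131 of 14983. The share of all genes with an unadjusted p below 0.05 is not given here. The libraries of RCV and CTL did not overlap for Dock2 alone among the members, against 2.9% of all genes. Dock2 had a log2 fold change of 1.17 (SE 0.24, adjusted p = 0.0607), or 2.26-fold, and was the member called by DESeq2 (adjusted p = 5.17e-04). It was also called without CPZ 1 (adjusted p = 0.0321) or CPZ 3 (0.0136) in the shared fit. Dock8 had 0.42 (SE 0.20, adjusted p = 0.805), Dock5 -0.29 (SE 0.24, adjusted p = 0.976) and Dock1 -0.04 (SE 0.12, adjusted p = 0.997).

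Measured in log2-CPM as a share of the distance between the CTL and CPZ means, the RCV libraries lay at 43.3 ± 6.24% (SD, n = 4) for Dock2 and at 22.7 ± 13.5% for Dock8. The microglia score lay at 35.8 ± 7.65% and the MOL score at -6.05 ± 23.4%, where a negative value is past the CTL mean. Dock1 lay at -13.0 ± 59.0% and Dock5 at 33.0 ± 50.1%. RCV 2 was at 74.2% for Dock1, and without it the log2 fold change in RCV against CTL was -0.22 (SE 0.09, adjusted p = 0.599 in edgeR, unadjusted 0.0209) for Dock1 and -0.51 (SE 0.24, adjusted p = 0.726) for Dock5. These positions were not tested against each other.

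In CPZ against RCV, 3 of the 9 members were higher in CPZ and none lower in edgeR. Over all genes, 7.01% passed in either direction and 5.13% were higher in CPZ. Dock2 had a log2 fold change of 1.62 (SE 0.21, adjusted p = 4.48e-04), Dock8 1.43 (SE 0.19, adjusted p = 3.56e-04) and Dock1 0.56 (SE 0.12, adjusted p = 0.0101). The libraries of these 3 genes did not overlap between the groups, as for 13.2% of all genes. Dock5 had -0.67 (SE 0.26, adjusted p = 0.173) and Dock11 0.47 (SE 0.18, adjusted p = 0.159). The 3 comparisons share libraries, so their results are not independent.

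**Figure D2:**
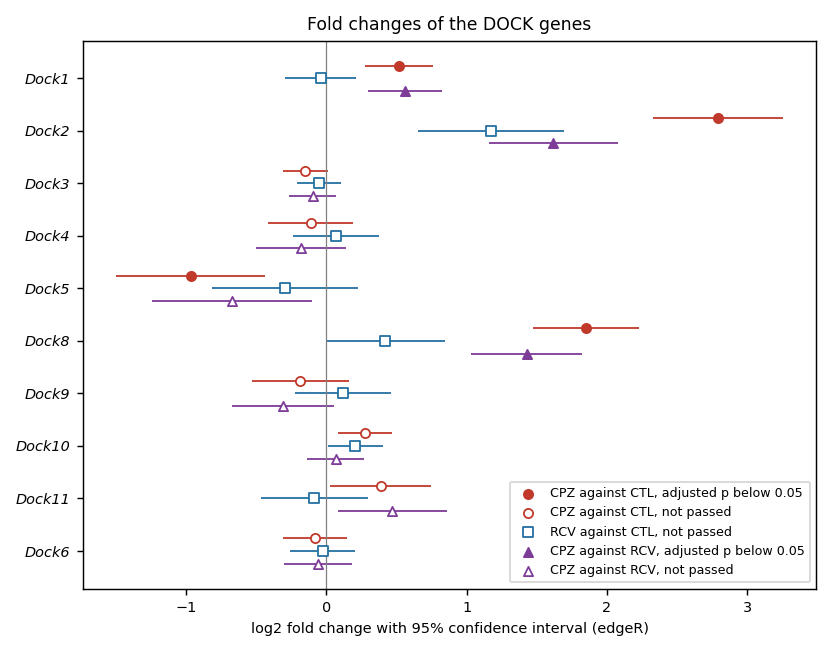
Log2 fold changes of the 9 members and of Dock6 on the x axis with 95% confidence intervals, 1 row per gene, for CPZ against CTL (circles), RCV against CTL (squares) and CPZ against RCV (triangles). Filled symbols passed an adjusted p of 0.05, and Dock1, Dock2 and Dock8 are filled in both comparisons with CPZ.

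The Dock8 and Dock2 values depended on the scale in some libraries. TPM divides counts by an effective transcript length that RSEM estimates per library from the isoforms it assigns. The effective length implied for Dock8 in CTL 1 was 36.5% of the gene's median over the libraries, and in RCV 1 to 3 it was 58.8% to 70.5%. For Dock2 it was 34.9% in CTL 5. The TPM of Dock8 was thus 4.06 in CTL 1 against 1.43 to 2.19 in the other CTL libraries, although its CPM there was 5.71. In CPZ against RCV, Dock8 was no longer called with limma on log2(TPM + 1) (log2 fold change 0.84, adjusted p = 0.102), while its call in CPZ against CTL was kept under each alternative run.

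The changes of the members were set against those of the cell type markers by subtracting a marker score from the log2-CPM of the member in each library. Relative to the microglia score, Dock2 was -1.76 ± 0.103 in CPZ (n = 4), -1.86 ± 0.352 in CTL (n = 5) and -1.62 ± 0.133 in RCV (n = 4). The CPZ and CTL values overlapped and differed by 0.10 (exact two-sided permutation test, p = 0.603, adjusted p = 0.603). On the log2(TPM + 1) scale the difference was -0.52 (adjusted p = 0.0476, exact permutation test). Dock8 was -2.20 ± 0.299 in CPZ and -1.37 ± 0.245 in CTL, so it rose by 0.83 less than the score on the log2 scale (exact permutation p = 0.0159, adjusted p = 0.0179), and all 4 CPZ values were below all CTL values. The score is a mean of 15 markers whose own log2 fold changes ran from 1.72 to 3.68, and the 1.85 of Dock8 lay within that range. This p covers the spread between libraries and not the spread between markers. Dock1, at a difference of -2.11, was also below the score in 4 of 4 CPZ libraries (exact permutation p = 0.0159, adjusted p = 0.0179).

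Relative to the MOL score, Dock5 was -1.68 ± 0.195 in CPZ and -2.15 ± 0.203 in CTL, a difference of 0.47 (exact two-sided permutation test, p = 0.0317, adjusted p = 0.0336), with 3 of 4 CPZ libraries above all CTL libraries. This call was lost without CTL 1, 3, 4 or 5 (adjusted p = 0.0605 each) or CPZ 1, 2 or 3 (0.0756 each, exact permutation tests), with differences of 0.41 to 0.56 over the libraries left out in turn. In RCV it was -2.52 ± 0.161, below the CTL range in each library, a difference that was not tested. Of the 18 tests, 9 members against 2 scores, 17 passed. From CTL to CPZ the microglia score itself moved by 2.63 and the MOL score by -1.36 on the log2 scale, without overlap of their libraries. These differences largely mirror the change of the score for the members that did not pass against CTL. The same holds for Dock1, which moved by 0.52, against the microglia score. The share of all genes that would pass was not computed, so the 17 are not a result particular to the members. The smallest p that 4 against 5 libraries allow is 0.0159, and most of the 18 tests had it. Adjustment over these tests therefore raised p little, from 0.0159 to 0.0179 for Dock8 against the microglia score and from 0.0317 to 0.0336 for Dock5.

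**Figure D3:**
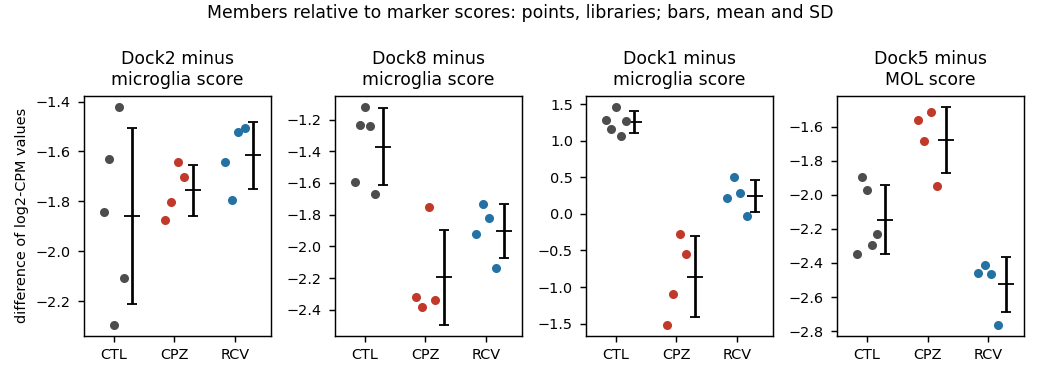
Log2-CPM of Dock2, Dock8 and Dock1 minus the microglia score and of Dock5 minus the MOL score (y axes, 1 scale per panel), with 1 point per library in CTL, CPZ and RCV and bars for the mean and SD. Dock2 keeps its distance from the score within the CTL range, Dock8 and Dock1 are lower in CPZ, and Dock5 is higher than all CTL libraries in 3 of 4 CPZ libraries (a call lost when any of 7 single libraries is left out) and below them in RCV.

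Dock4 and Dock9 were highest in a library rich in hippocampal markers. Dock4 had 195.1 CPM in RCV 3 against 122.0 to 132.5 in the other RCV libraries, and Dock9 had 261.7 in RCV 3 and 140.7 in RCV 4. The hippocampal score, the mean log2-CPM of 9 hippocampal neuron markers, was 4.12 in RCV 3, the highest of all libraries, and 1.51 in RCV 4, the lowest.

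Over the 13 libraries, Dock9 had a Pearson r of 0.82 with the hippocampal score (permutation p = 9.5e-04, adjusted p = 0.0155) and a Spearman rho of 0.85 (permutation p = 4.7e-04, adjusted p = 0.00846). Without the 2 libraries farthest from the median score r was 0.68, and with the group means removed it was 0.85. Dock9 had an r of -0.78 with the striatal score (permutation p = 0.00172, adjusted p = 0.0155), where the rank correlation of -0.62 did not pass after adjustment (permutation p = 0.0279, adjusted p = 0.240). For Dock4, r with the hippocampal score was 0.64 (permutation p = 0.0150, adjusted p = 0.0676) and rho 0.45 (permutation p = 0.125, adjusted p = 0.564). These 18 relations, of 9 members with 2 scores, were chosen after the values of RCV 3 had been seen.

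**Figure D4:**
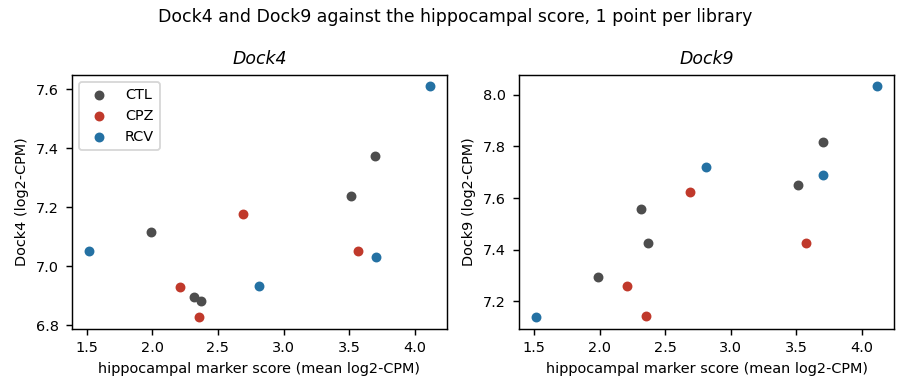
Log2-CPM of Dock4 (left) and Dock9 (right) on the y axes against the hippocampal marker score (mean log2-CPM) on the x axes, with 1 point per library coloured by group (CTL, CPZ, RCV). Dock9 increases with the score over all groups (r 0.82, n = 13), and RCV 3 is at the upper right of both panels.

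Up to 3 genes with the most similar profile over the 13 libraries are given for each member among tested genes whose log2-CPM averaged 1 or more. Dock2 was closest to Fcgr3, an Fc receptor of microglia and macrophages (r = 0.99), Gm2629 (0.99) and Hpgds, a prostaglandin synthase (0.99). Dock8 was closest to Hmox1, a heme oxygenase (0.99), Msn, an actin linker (0.98), and Eprs, a transfer RNA synthetase (0.98). Dock5 was closest to Jam3, an adhesion molecule (0.98), Tmem63a (0.97) and Unc5b, a netrin receptor (0.96), with r of 0.97, 0.94 and 0.93 once group means were removed. Dock1 was closest to Mid1ip1, Rab31 and Lactb2 (0.91 to 0.93).

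For the remaining members, Dock3 was closest to Btrc (0.90), Cdkn2d (0.90) and Snn (0.89), and Dock4 to Bzw2 (0.95), Snph (0.93) and Pcdh20 (0.90). Dock9 was closest to Apba1 (0.94) and also close to Bin1 (0.91), Dock10 to Gm9794 (0.95), Hmgn2 (0.91) and Kyat3 (0.88), and Dock11 to Engase (0.88), Rcc2 (0.85) and Pxdc1 (0.85). All correlations are descriptions over libraries that share their group.

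Around the DOCK genes, 85 genes of 7 lists by role were tested. In CPZ against CTL, 23 were higher and 1 was lower, beside 7.66% higher and 2.5% lower over all genes, and the other genes did not pass, with a median log2 fold change of 0.08 against -0.02 over all genes. Several of those with the largest changes are genes of blood-lineage cells, among them Rac2, Vav1, Was, Nckap1l and Arhgap30, and the microglia markers rose in the same libraries. Of 10 astrocyte markers 4 were also higher in CPZ and 0 lower in edgeR, and their score lay between 8.07 and 8.24 in CPZ, 7.96 and 8.14 in RCV and 7.61 and 7.89 in CTL. The part of either cell type in these counts was not tested.

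Among the receptors upstream of DOCK proteins, 4 of 13 rose and 1 fell. Itgb5, an integrin subunit that takes part in engulfment, rose by 1.74 on the log2 scale (SE 0.15, adjusted p = 4.55e-06), Cxcr4, a chemokine receptor, by 1.21, Itgb3 by 1.09 and Mertk, a receptor for apoptotic cells and myelin debris, by 0.83. Erbb3, a neuregulin receptor of oligodendroglia and Schwann cells, fell by 0.84 on the log2 scale (SE 0.19, adjusted p = 0.00984). Lrp1 (0.20, adjusted p = 0.0564), Megf10 (0.13, adjusted p = 0.605) and Adgrb1 (-0.10, adjusted p = 0.309), which also act in engulfment, did not pass.

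Of the scaffolds that bind or recruit DOCK proteins, 2 of 10 rose, namely Mob1a (0.92) and Wipf1 (0.68). Elmo1, the partner of Dock1 and Dock2, had -0.10 (SE 0.12, adjusted p = 0.696), and Crk had 0.04 (SE 0.06, adjusted p = 0.780). Of the GTPases 3 of 9 rose. Rac2, the Rac of blood cells, rose by 2.78 (SE 0.36, adjusted p = 9.10e-05), Rap1b by 0.50 and Cdc42 by 0.23, while Rac1, the Rac present in most cells, had 0.08 (SE 0.05, adjusted p = 0.322).

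Downstream, 4 of 16 effectors rose, with Was at 2.25, Nckap1l, the WAVE subunit of blood cells, at 2.21, Wasf2 at 0.80 and Cyfip1 at 0.60 on the log2 scale. Of the 8 subunits of the actin-nucleating Arp2/3 complex, Arpc1b alone rose, by 1.87. Of 16 Dbl-family exchange factors 5 rose, namely Vav1 (2.36), Fgd2 (1.06), Vav2 (0.65), Prex2 (0.62) and Arhgef6 (0.62). Of 13 GTPase-activating proteins and dissociation inhibitors 4 rose, namely Arhgap30 (2.08), Arhgap45 (1.91), Arhgap25 (1.36) and Arhgdib (1.21).

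In RCV against CTL, 0 of the 85 genes passed in edgeR and limma-voom, beside 0.374% of all genes in edgeR. Of the 85, 12 had an unadjusted p below 0.05 in edgeR, and the share of all genes at that unadjusted threshold is not given here. DESeq2 called 2 of the 85, beside 131 of 14983 genes. In CPZ against RCV, 17 were higher in CPZ and 1, Bcar1, was lower (-0.27, adjusted p = 0.0402), where 7.01% of all genes passed in either direction and 5.13% were higher in CPZ.

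**Figure D5:**
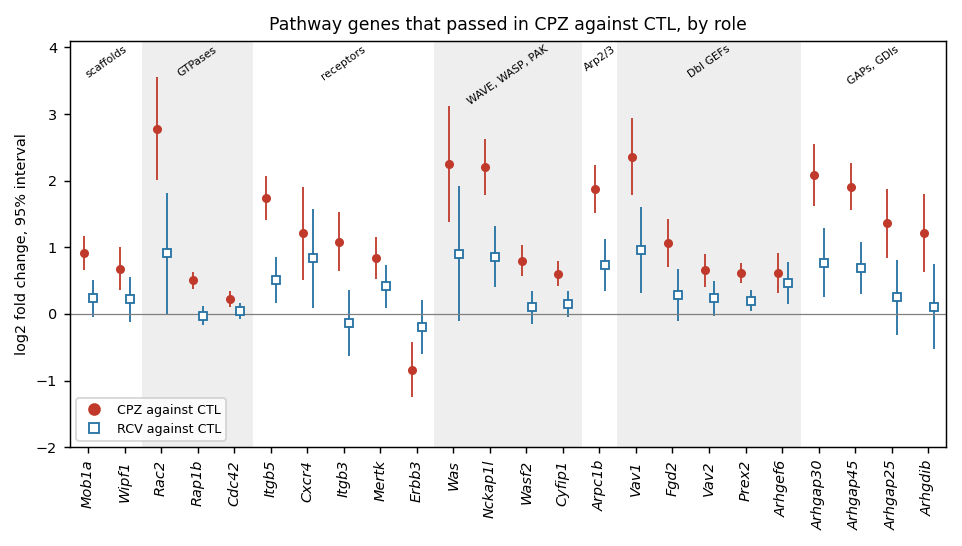
Log2 fold changes (y axis) with 95% confidence intervals of the 24 pathway genes that passed in CPZ against CTL (circles), grouped by role, and of the same genes in RCV against CTL (open squares). Rac2, Vav1, Was, Nckap1l and Arhgap30 are above 2 in CPZ against CTL, Erbb3 is the gene below 0, and no gene passed in RCV against CTL.

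Dock1 and Dock10 were also read beside Arap2, Tenm4 and Pex5l, which the study lists with them as markers of an oligodendroglia subcluster in its nuclei, so the choice is not independent of these mice. The study reports that the proportion of this subcluster rose in CPZ. A proportion of nuclei and a level in bulk RNA of all cells are different measures, so the values below do not test that rise. Arap2, a GTPase-activating protein for Arf GTPases, had 112.3, 93.8, 98.5, 63.0 and 114.1 CPM in CTL and 162.5, 172.2, 162.5 and 157.3 in CPZ. Its CPZ libraries were above all CTL libraries, with a log2 fold change of 0.77 (SE 0.14, adjusted p = 0.00156). Tenm4 had -0.19 (adjusted p = 0.211) and Pex5l -0.15 (adjusted p = 0.646), so of the 5 genes Dock1 and Arap2 rose and 3 did not pass.

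On GRCm38 (GENCODE M21), the members lie on 8 chromosomes and span 181308 (Dock5) to 557078 bases (Dock2). Dock2 covers chr11:34226815-34783892 on the minus strand, Dock8 chr19:24999534-25202432 on the plus strand, Dock1 chr7:134670654-135173639 on the plus strand and Dock5 chr14:67752135-67933442 on the minus strand. Fam196b lies within the span of Dock2 and Fam196a within that of Dock1, each on the opposite strand and sharing 0 exonic bases with the DOCK gene. Neither passed, with log2 fold changes in CPZ against CTL of -0.10 (adjusted p = 0.902) for Fam196b and -0.12 (adjusted p = 0.802) for Fam196a. No other tested gene overlapped a member.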

How the data were processed

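Bulk RNA-seq was performed on 13 hemisphere libraries (Kapa mRNA HyperPrep, paired 50-base reads on a HiSeq2500). The submitters' processing notes name STAR, RSEM and mm10, without versions, and the study names the RNASequest pipeline. The strand setting of the counting and the test for differential expression are not stated. The authors deposited RSEM estimated counts per gene, which carry no scaling for depth, and TPM values, which correct for effective length and library size. Of the estimated counts, 4.45% were not whole, and all were rounded. The table also held 92 spike-in rows without a gene name and with 0 counts, which were left out. Groups came from the treatment labels (titles of RCV libraries begin with "Veh"). The deposited gene annotation gave symbols, and 55141 of 55401 gene identifiers matched GENCODE M21 without their version.

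The main test was the quasi-likelihood test of edgeR 4.0.16 (R 4.3.3, robust option) after filterByExpr and TMM scaling, in 1 fit of all libraries with 1 mean per group. Benjamini-Hochberg adjustment ran over all genes tested (threshold 0.05). Log2-CPM used a prior count of 2. Marker-relative differences were tested by exact permutation, and correlations by 100000 permutations (scipy 1.17.1). Alternatives used DESeq2 1.42.0, limma 3.58.1 (voom, or log2 TPM with a pseudocount of 1 or 0.1), other filters, a replicate block, regional covariates and leaving out each library. The edgeR step was tested on simulated data. Replicate pairs differed beyond sampling noise.

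The members and lists were chosen with earlier results of these data known. Named were the 9 members, Dock6, the 3 genes most correlated with each member, pathway genes called in CPZ against CTL, the 3 subcluster markers and tested genes overlapping a member. The pathway genes that did not pass and Bcar1 were named after their values were seen. Nuclei and spatial data of the study were not analysed here, and some listed genes are not reported here.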

Additional observations from a re-analysis of the deposited data

Results flagged for a closer look

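Of 27 groups of CPM values (9 members in 3 groups), 3 held a library that stood apart from the rest of its group by Dixon's criterion, which chance meets in about 1 of 20 groups. Dock1 was at 56.9 CPM in RCV 2 against 35.8 to 39.1 in the other RCV libraries. Dock8 was at 11.8 CPM in RCV 2 against 8.08 to 8.65. RCV 2 also had the highest microglia score of its group (5.34) and the highest MOL score (7.36). Dock4 was at 195.1 CPM in RCV 3 against 122.0 to 132.5, and RCV 3 had the highest hippocampal score and the lowest striatal score (3.57) of all libraries.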

How the results depend on the processing

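Dock2 and Dock8 kept their direction and call in CPZ against CTL under each alternative, with log2 fold changes of 2.09 to 2.95 and 1.26 to 1.96. Dock1 kept its direction (0.47 to 0.57), and Dock5 too (-1.11 to -0.81). With limma on log2(TPM + 1) and no filter, 2 members were called in CPZ against CTL and 1 in CPZ against RCV, where more genes were tested. Over all 28844 genes that run called 993 and 477, respectively. Without a filter on counts, Dock5 lost its call in CPZ against CTL (adjusted p = 0.0815) and Dock10 gained one (0.0249). In RCV against CTL, 1 member was called by DESeq2 and 1 when only the 2 groups compared were fitted, Dock2 in each. Over all genes these runs called 131 of 14983 and 82 of 14528. Leaving out 1 library gave 3 to 5 members called in CPZ against CTL, 0 to 1 in RCV against CTL and 3 in CPZ against RCV. Over all genes, the fit without CTL 1 called 1349, 26 and 987 of 14925, respectively. Without CTL 3 it called 1449, 29 and 1057 of 14933. These counts are not given here for the other libraries left out. The difference of Dock2 to the microglia score turned to -0.52 on the log2(TPM + 1) scale, and its cause was not tested. The difference of Dock5 to the MOL score stayed positive. It was 0.60 with the median over the markers as score (adjusted p = 0.0179) and 0.54 on the log2(TPM + 1) scale (0.0336, exact permutation tests). With 1 library left out it was 0.41 to 0.56. It lost its call when any 1 of 7 libraries was left out (adjusted p = 0.0605 or 0.0756, exact permutation tests). Replicate numbers did not pair the libraries (correlations of -0.22 to 0.18 between libraries of the same number). With the replicate block, 3 members were called in CPZ against CTL, 0 in RCV against CTL and 3 in CPZ against RCV, and no library correlated best with its own number. Over all 14985 genes the fit with the block called 1172, 42 and 755, respectively. The 21 to 43 counts of Dock2 in CTL limit the precision of its fold change.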
